A study of Mus musculus with 6 samples.

Results

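The expressed zinc finger protein genes of B16F10 cells were examined, an established mouse melanoma line of wild-type genotype as labelled. Their members were chosen by symbol and by measured level. A gene belonged to the set when its symbol was Zfp followed by a number and at most 1 letter, and its average log2 CPM was 3 or more. CPM are read counts scaled to a common library size. Of 27179 genes in the deposited table, 397 carried such a symbol and 236 of these reached the limit. RNA was sequenced from 3 cultures given 0.01% olive oil (OLO) and from 3 cultures given 0.01% ozonated olive oil (OZO), each for 6 h, as the labels record. The measurement used here is 1 value per gene, the authors' mean of log2 CPM over all 6 libraries. It joins both treatments, so it describes the level of a gene across the experiment and carries neither a spread between cultures nor a difference between OZO and OLO. That comparison was not analysed here.

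C2H2 zinc finger proteins are the largest family of transcription factors in mammals. Each finger is a short loop held by a zinc ion, and rows of fingers read DNA base by base. Many of them carry a KRAB domain, which recruits the corepressor TRIM28 and silences retroelements and imprinted loci, and the genes of this kind lie in tandem clusters that arose by gene duplication. Others activate promoters, bind RNA or take part in ribosome assembly and mitosis. In the mouse, the name Zfp with a number was given on the basis of the fingers alone and covers all of these functions.

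The cells carried the melanocyte lineage markers, and all 8 checked lay between 5.93 and 12.78 log2 CPM. Dct and Tyrp1, enzymes of melanin synthesis, averaged 12.78 and 12.51 log2 CPM, and the lineage factor Mitf averaged 8.17. Of the keratinocyte genes, Krt5 had no reads in any library and Krt14 averaged -5.03, and the leukocyte gene Ptprc averaged -3.83 log2 CPM. Col1a1 of fibroblasts and Pecam1 of endothelium averaged 0.76 and 0.28. In RNA of whole cultures, fewer cells that express a gene and less RNA per cell cannot be told apart. Genes without reads shared the lowest average of -5.30, from which the scaled library size was 19641946 reads as a geometric mean. The limit of 3 thus stood for 8 CPM, or 157 reads per library.

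Zinc finger protein genes were seldom silent and seldom abundant. Only 7 of the 397 Zfp genes (1.76%) had no reads. Of the 393 annotated as protein-coding, 6 (1.53%) had none, against 16.4% of the other protein-coding genes. The limit was reached by 60.1% of these 393. Of 20590 other protein-coding genes, 42.4% reached it. The Zfp genes crowded around the limit, with 59 between 2 and 3, 69 between 3 and 4 and 72 between 4 and 5 log2 CPM. The 236 expressed members ranged from 3.01 to 9.14, with a median of 4.70 and quartiles of 3.92 and 5.74. The 8567 other protein-coding genes between 3 and the highest member had a median of 5.64. These levels chose the members and are given as a description. The genes just inside the limit were Zfp983 (3.01), Zfp442 (3.05), Zfp865 (3.13), Zfp428 (3.17) and Zfp772 (3.21 log2 CPM). Just outside it were Zfp940 (2.99), Zfp383 (2.97), Zfp607a (2.97), Zfp697 (2.95) and Zfp747 (2.94 log2 CPM).

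**Figure D1:**
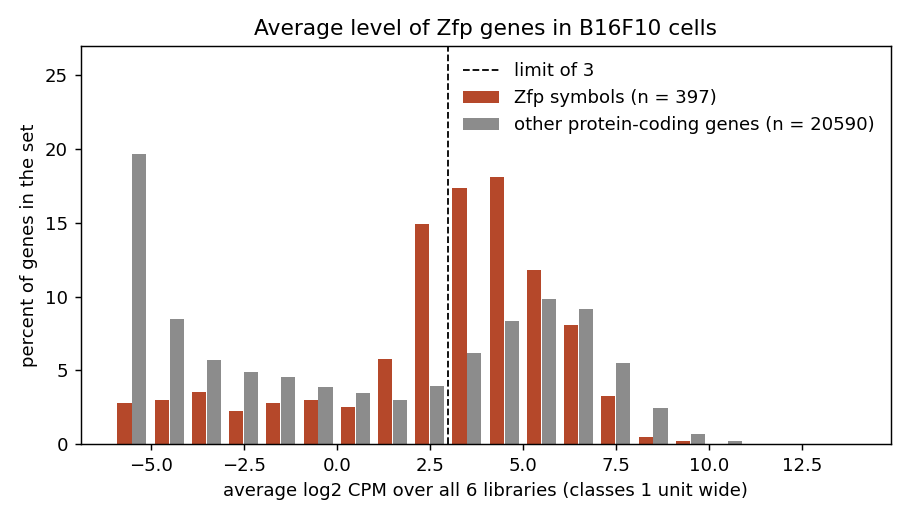
Percent of genes (vertical axis) in classes of average log2 CPM over all 6 libraries (horizontal axis), for 397 Zfp symbols and 20590 other protein-coding genes. The Zfp genes gather between 2 and 6, on both sides of the dashed limit at 3, whereas the other genes have a class of 19.7% at the lowest level.

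Levels of different genes were compared per kilobase of exon, because a long transcript yields more reads. On this scale the members had a median of 2.51 log2 CPM per kb over the 235 with a known length, and a range from -0.57 to 5.76. Other protein-coding genes of like average expression had 2.74, when their medians in 5 classes of log2 CPM were weighted by the number of members in each class. Within a class of log2 CPM the value per kb differs mainly through exon length, so this is no separate measure of a lower level. The exons of the members covered a median of 5119 bases against 4633 in the weighted others, while their genes spanned a median of 19.4 kb against 23.5 kb.

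The most abundant member was Zfp106, an RNA-binding protein needed by motor neurons and muscle. It averaged 9.14 log2 CPM, and 5.76 log2 CPM per kb placed it first on that scale too. Zfp207, or BuGZ, which loads Bub3 onto kinetochores in mitosis, followed with 8.41 log2 CPM and 5.67 per kb. Both genes act outside the classical role of a zinc finger repressor. Zfp638, a nuclear protein that helps to silence unintegrated retroviral DNA, ranked 3 by log2 CPM (8.38) but 19 per kb (4.39), since its exons cover 15810 bases. The short gene Zfp869, which was named after its values were seen, moved the other way, from rank 38 to rank 3. Zfp871 (7.99 log2 CPM, 4.51 per kb) and Zfp664 (7.80 log2 CPM, 4.83 per kb) completed the 5 highest values.

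Members that act on RNA or ribosomes spread over much of the range. Zfp346, which binds double-stranded RNA, had 7.02 log2 CPM and 4.96 log2 CPM per kb. Zfp326, part of a complex that links elongation to splicing, had 6.23 and 3.38. Zfp598, the ubiquitin ligase that marks collided ribosomes, had 5.77 and 3.81, and Zfp622, an assembly factor of the large ribosomal subunit, had 5.56 and 2.73. Zfp593, another factor of that subunit, stayed below the limit with 1.74 log2 CPM. Zfp36, which encodes tristetraprolin and directs the decay of inflammatory mRNAs, was near the bottom of the set with 3.26 log2 CPM and 1.47 per kb. The ubiquitin ligase Zfp91 had 7.50 log2 CPM and 4.17 per kb.

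All 4 listed activators of promoters were members. Zfp148, which binds GC-rich promoters, had 7.64 log2 CPM and 4.26 log2 CPM per kb. Zfp384 had 6.34 and 3.66. Zfp410, known for its control of the Chd4 gene, had 6.19 and 2.72. Zfp143, which binds promoters and marks the ends of chromatin loops, had 5.01 log2 CPM but 3.21 per kb, above Zfp410 on the latter scale. The Integrator partner Zfp609 had 7.27 log2 CPM and 4.22 per kb, and the p53 partner Zfp385a had 4.49 and 3.16.

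Among the repressors and partners of chromatin enzymes, 8 of 9 listed genes were members. The highest was Zfp281, a regulator of pluripotency genes, with 6.80 log2 CPM and 4.50 log2 CPM per kb. Zfp644, a partner of the histone methyltransferase G9a, had 6.46 log2 CPM but only 2.65 per kb. Zfp518a and Zfp518b had 3.43 and 3.20 log2 CPM per kb. Zfp703 and Zfp217, both known from breast cancer, had 3.19 and 2.61 per kb. Zfp462 and Zfp827 were the lowest of the 8 members, with 1.33 and 0.56 log2 CPM per kb. Zfp503, the close relative of Zfp703, stood at 0.13 log2 CPM and -1.94 per kb, the lowest of the list, and so was no member.

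The KRAB proteins of imprinted loci differed widely. Zfp445, which protects imprints in mouse and human embryos, had 7.69 log2 CPM and 4.80 log2 CPM per kb, and was among the 10 highest members on both scales. Zfp57, which protects the same kind of loci, had 0.62 log2 CPM. Zfp568, known for silencing a placental transcript of Igf2, had 5.45 log2 CPM and 2.57 per kb. Zfp809, which recognises proviruses of murine leukemia virus, had 4.84 and 3.28. Zfp42, the pluripotency gene also known as Rex1, had -4.30 log2 CPM. Of the 30 genes listed by role, 26 were members, against 59.4% of all 397 Zfp genes. The list was chosen with earlier results of these data known, so nothing is read from this count or from those of its parts.

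Members were concentrated on a few chromosomes. Chromosome 7 held 43 of the 236 (18.2%), chromosome 17 held 33 (14.0%) and chromosome 13 held 25 (10.6%). Together these chromosomes, chosen after their counts were seen, held 42.8% of the members, against 14.4% of the other protein-coding genes in the same range of levels and 15.2% of these when weighted to the members' classes. Other genes with zinc finger in their full name, 192 in this range, had 14.1% on these chromosomes. The Zfp genes below the limit had 47.8% of 161 there, so the concentration was one of the Zfp name and not of the expressed members alone. No test was made, since neighbouring genes arose by duplication and are not independent. Among the members, location differed between the classes of log2 CPM, which are not corrected for length. The median exon length also rose over these classes, from 4134 to 7221 bases. The share on chromosome 7, 13 or 17 was 55.1% of the 69 members between 3 and 4 log2 CPM, 48.6% of 72 between 4 and 5, 36.2% of 47 between 5 and 6, 21.9% of 32 between 6 and 7, and 25% of 16 at 7 or more. Over the same classes the other genes ranged from 17.4% to 12.1%. Per kb, the members on chromosomes 7, 13 and 17 had medians of 2.24, 2.05 and 2.21 log2 CPM per kb, against 2.51 over all members. Other chromosomes had values as low, such as 1.98 on chromosome 11 and 1.51 on chromosome 14, which held 2 members.

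**Figure D2:**
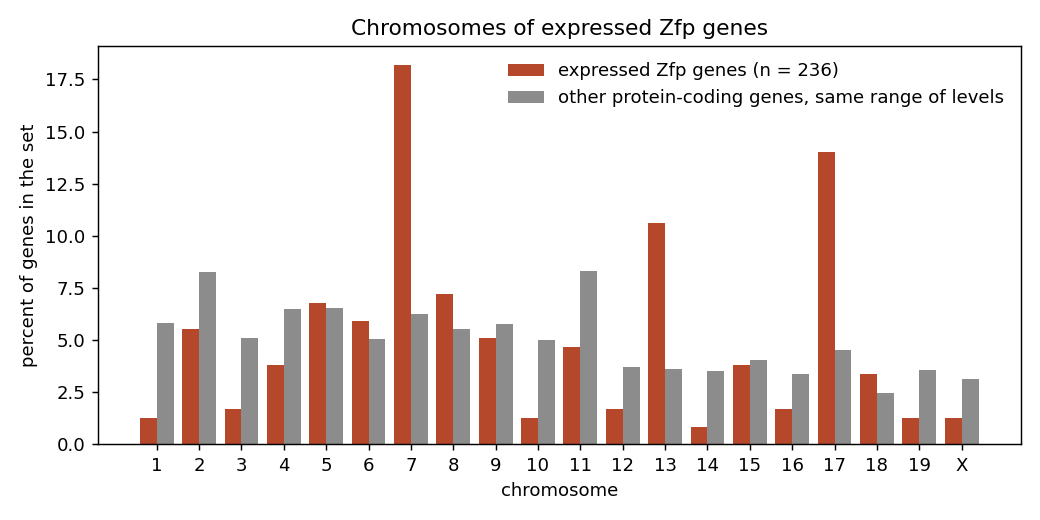
Percent of genes (vertical axis) on each chromosome (horizontal axis), for the 236 expressed Zfp genes and the 8567 other protein-coding genes in the same range of levels. The Zfp genes stand above the others on chromosomes 7 (18.2% against 6.26%), 13 (10.6% against 3.62%) and 17 (14.0% against 4.54%).

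Not every chromosome with many Zfp genes expressed them to the same extent. On chromosome 17, 73.3% of 45 Zfp genes were members, and on chromosome 13, 62.5% of 40. On chromosome 7, which holds 93 Zfp genes, 46.2% were members. Chromosome 4 had 36% of 25. Chromosome 5 had 84.2% of 19, chromosome 6 had 77.8% of 18 and chromosome 2 had 46.4% of 28.

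Tandem neighbours were common. A further Zfp gene lay within 100 kb of 127 members (53.8%), while 109 stood alone. Members with such a neighbour had a median of 4.36 log2 CPM, or 2.35 log2 CPM per kb, and those alone had 5.06, or 2.60 per kb. The lone members also had longer exons, with a median of 6006 bases against 4387, and the gap between both kinds was smaller per kb. Of members at 6 log2 CPM or more, a count not corrected for length, 36 stood alone and 12 had a neighbour. The share with a neighbour was 63.8% between 3 and 4 log2 CPM and 18.8% at 7 or more. Below the limit, 63.1% of the Zfp genes with a known position had a neighbour. There the genes with a neighbour had a median of 1.59 log2 CPM, or -0.33 per kb, and those alone had -0.14, or -1.62 per kb. The limit cuts on the same levels, so it shapes both of these orders. Over all 396 placed Zfp genes, without the limit, those with a neighbour had a median of 3.34 log2 CPM, or 1.20 per kb, and those alone had 3.99, or 1.83 per kb. Reads of close paralogs in a cluster can be split or left uncounted, so the levels of single clustered genes are uncertain and may be too low. The part of such reads in these levels was not tested, nor their part in the gap between genes with a neighbour and those alone.

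Chaining genes less than 100 kb apart gave 15 clusters of 5 or more Zfp genes, with 130 genes and 72 members in all. Members and weaker genes were mixed in 14 of the 15. The largest, chr13:67038594-67827000 of GRCm38, held 23 Zfp genes, of which 13 were members. Inside it, 8 genes in a row from Zfp874a to Zfp738 and Zfp65 beside them were members, between 3.66 (Zfp874b) and 5.33 log2 CPM (Zfp65). Zfp459, whose annotated span overlaps that of Zfp874a on the same strand, had -0.88 log2 CPM, and Zfp874a had 5.02. The cluster at chr7:29768552-30169775 held 15 genes, 9 of them members, and the highest by log2 CPM were Zfp260 (6.54) and Zfp146 (6.46). Per kb, Zfp146 lay above Zfp260, with 4.75 log2 CPM per kb. At chr17:21383707-21994366, 9 of 13 genes were members, led by Zfp948 (5.75), and Zfp820 alone fell far below the rest with -2.68 log2 CPM. The cluster at chr17:32765496-33110707 held Zfp871, the fourth highest member by log2 CPM (7.99), while the 6 other members there lay between 3.42 (Zfp472) and 4.47 (Zfp952). Its neighbour Zfp811 had -1.14. The only cluster of this size in which every Zfp gene was a member lay at chr9:20345136-20605404, with Zfp266 (7.23), Zfp26 (6.00), Zfp426 (5.74), Zfp560 (3.35) and Zfp846 (3.21 log2 CPM). Cluster genes were named by position or by level after their values were seen.

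**Figure D3:**
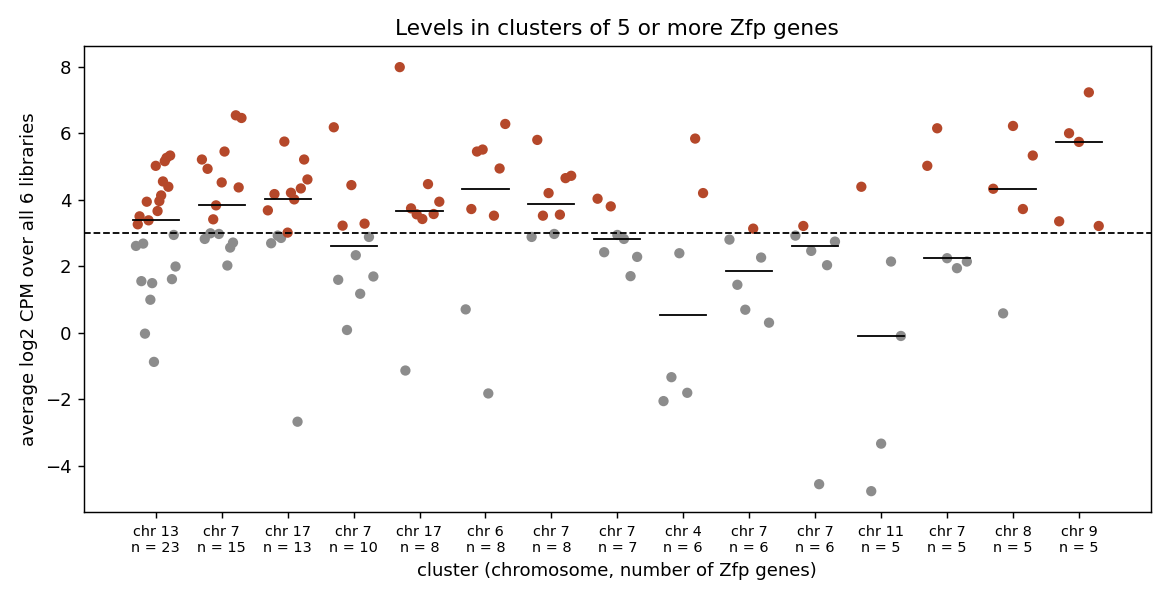
Average log2 CPM over all 6 libraries (vertical axis) of each Zfp gene in the 15 clusters of 5 or more (horizontal axis, in falling order of size, genes in order of position). Red points lie at or above the dashed limit of 3, grey points below it, and black lines are medians. Members and weaker genes are mixed in 14 clusters, and in the cluster on chromosome 9 all 5 genes are members.

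Promoters of the members were poor in CpG, the dinucleotide that is dense in most mouse promoters of active genes. Promoters were the RefSeq windows of 250 bases before to 50 bases after the first listed start, found for 196 of the 236 members. The median number of CpG in a window was 14, with quartiles of 9 and 21. In the weighted other genes of like expression it was 21.8, and in the other genes named zinc finger it was 23. The median GC content was 54.3% against 61.4% in the weighted others. Zfp genes below the limit had a median of 11 CpG over 135 windows, and also 54.3% GC. Low CpG was thus a trait of the Zfp name and not of the expressed members alone. In 58 of the member windows the first listed start lay over 100 bases from the 5′ end of the gene, so that the window may be that of an internal start. Without those, the median was 13 CpG over 138 members against 21.4 in the weighted others. As examples, the windows richest and poorest in CpG are shown among the members named by role or by extreme level that have 1 listed start, within 100 bases of the gene end, with each CpG in capitals and the strand of the gene from 5′ to 3′. The window of Zfp664 lies at chr5:124862455-124862754 on the plus strand of GRCm38.p6 and holds 39 CpG at 75% GC. That of Zfp983 lies at chr17:21650361-21650660 on the plus strand and holds 7 CpG at 56% GC.
Zfp664: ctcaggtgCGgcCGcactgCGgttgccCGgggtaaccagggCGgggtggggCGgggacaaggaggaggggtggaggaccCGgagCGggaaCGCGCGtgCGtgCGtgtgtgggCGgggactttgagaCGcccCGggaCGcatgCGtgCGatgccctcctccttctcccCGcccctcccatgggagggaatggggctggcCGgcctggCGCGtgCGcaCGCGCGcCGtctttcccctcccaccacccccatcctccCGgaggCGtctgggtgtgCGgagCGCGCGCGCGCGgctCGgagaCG
Zfp983: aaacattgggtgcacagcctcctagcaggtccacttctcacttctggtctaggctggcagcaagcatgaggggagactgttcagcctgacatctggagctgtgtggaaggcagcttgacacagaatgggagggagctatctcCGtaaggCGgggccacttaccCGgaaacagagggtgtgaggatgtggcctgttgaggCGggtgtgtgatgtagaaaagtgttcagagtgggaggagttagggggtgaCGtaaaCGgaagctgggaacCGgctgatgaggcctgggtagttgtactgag

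In the Zfp664 window the CpG run through the whole length, with an alternating CG stretch near its 3′ end. In the Zfp983 window each stands apart, and they lie from near the middle of the window to its 3′ part, with none in the 5′ part. Extreme level was one way into this choice of examples, so nothing is read from their levels, and the higher members Zfp106 and Zfp871 had 14 and 12 CpG in their windows.

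Among the members, the share of CpG-poor windows was lower in the higher classes of log2 CPM. Fewer than 10 CpG were present in 29.6% of the 196 member windows, against 11.8% in the weighted others and 43.0% of the 135 windows of Zfp genes below the limit. Between 3 and 4 log2 CPM, 40.0% of 60 member windows had fewer than 10. The share was 35% of 60 between 4 and 5, 24.3% of 37 between 5 and 6, and 16% of 25 between 6 and 7. At 7 or more it was 0 of 14. The other protein-coding genes went from 16.9% to 6.13% over these classes. Other genes with zinc finger in their name had 11.1%, 12.9%, 9.30%, 10.3% and 18.2%. Each of these shares rests on 3 or 4 genes, over 22 to 43 windows. Whether the sets differ in this course was not tested. CpG content moved with location as well, since members with a Zfp neighbour had a median of 11 CpG and those alone had 17. Which of level, location and CpG content goes with which was not tested.

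**Figure D4:**
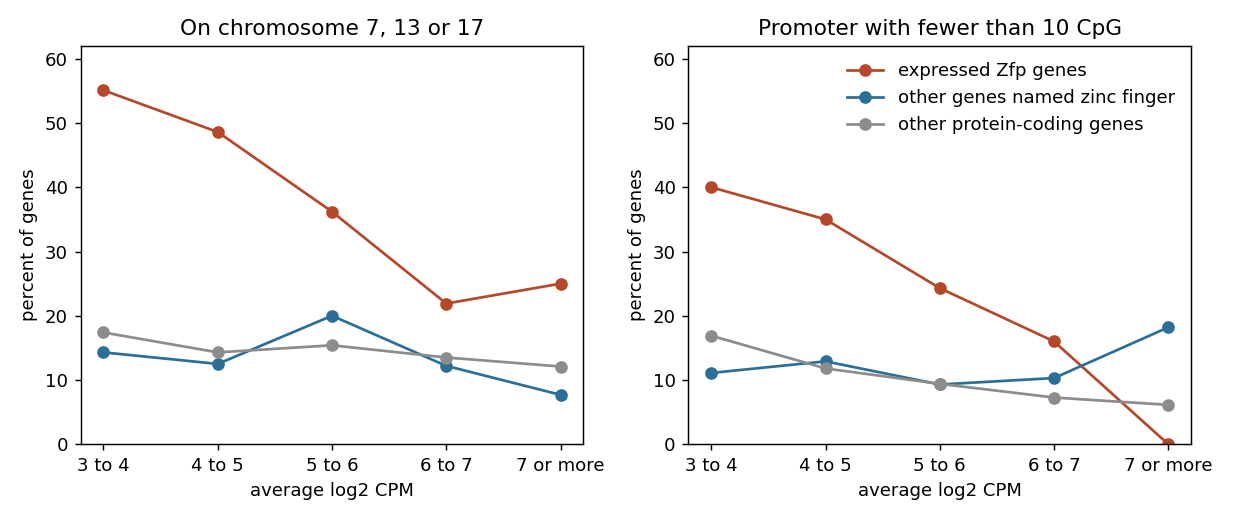
Percent of genes on chromosome 7, 13 or 17 (left) and percent of promoter windows with fewer than 10 CpG (right), on the vertical axes, by class of average log2 CPM (horizontal axes). Expressed Zfp genes are red, other genes with zinc finger in their name blue, and other protein-coding genes grey. The Zfp genes start at 55.1% and 40.0% in the lowest class and come down to 25% and 0% in the highest, where they are 16 genes with 14 windows.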

How the data were processed

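RNA-seq of 6 B16F10 cultures, 3 OLO and 3 OZO, was used as deposited. The authors prepared directional libraries, aligned reads to mm10 with HISAT2 (2.1.0), counted them with featureCounts (2.1.1) and applied limma-voom (3.58.1), according to the methods and the submitters' processing notes. Strand use in counting and filters are not given in the sources used here, though 6025 genes without reads were kept in the values. The value analysed was the deposited average log2 CPM, with 0.5 reads added per count by voom. The other numeric columns hold the authors' own comparison of OZO with OLO (fold changes, test statistics and p-values) and were not used, so the planned test of OZO against OLO was not run and no sample-level comparison was made. No value of a single library entered, so the error of the means could not be estimated.

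Positions were those of RefSeq on GRCm38.p6, the build mm10 names, matched by Entrez identifier for 236 of 236 members and 25275 of 27179 genes. Exon lengths were the union of exons in GENCODE release M21 and may differ from the lengths behind the authors' counts. Of 235 members found there, 31 overlapped the span of another gene of the table, 26 of them on the opposite strand, where reads could be shared if strand was ignored, and 8 on the same strand, where reads are ambiguous in either case. Zfp genes named by rule were those listed by role, the 5 highest and 5 lowest members, and the 5 Zfp genes just below the limit. Zfp869 and the cluster genes were named in addition, after their values were seen. Members and lists were chosen with earlier results of these data known. Genes are not replicates, so shares and medians over genes are given without a test. Python 3.11.15, numpy 2.4.6, pandas 2.3.3 and matplotlib 3.10.9 were used, and the functions for lengths and clusters were tested on simulated data.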

Additional observations from a re-analysis of the deposited data

How the results depend on the processing

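No paired analysis was possible because the value analysed is 1 mean per gene over both groups. For the same reason, leaving out single cultures, a count test, another normalization and another pseudocount were not run. The size of the set followed the limit. With a limit of 0, 328 genes were counted (median 4.02 log2 CPM), and with a limit of 5, 95 genes (median 6.02), against 236 genes and a median of 4.70. Any symbol starting with Zfp and a number gave 239. The remaining alternatives were added after the data were seen. With a limit of 5, 28 members lay on chromosomes 7, 13 and 17, in place of 101, which is 29.5% in place of 42.8%. A neighbour within 50 kb was found for 117 members and within 250 kb for 140, in place of 127, and members alone kept the higher median in both cases (4.99 against 4.36, and 5.06 against 4.38 log2 CPM). Counting CpG at the start richest in them gave a median of 15 in place of 14, and a limit to first starts within 100 bases of the gene end gave 13.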
